A study of Homo sapiens with 8 samples.

Results

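The EGR, IER and KLF immediate early genes were followed in 293T, a cell line derived from human embryonic kidney and transformed with large T antigen of SV40. The members were EGR1, EGR2, EGR3, IER2, IER3, IER5, KLF2, KLF4, KLF6 and KLF10, and every probe set of the values table whose platform annotation gave one of these symbols was taken. In the annotation used here 9 of the 10 genes had a probe set, 17 of the 54675 probe sets in all, and no probe set carried the symbol EGR2. KLF6 had 5 probe sets, EGR1 had 3, KLF2 and KLF4 had 2 each and the other 5 genes had 1 each.

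Immediate early genes are switched on from pre-existing transcription factors, without new protein synthesis, when cells meet growth factors, stress or damage. Serum response factor with its ELK and MRTF partners, CREB and the kinases of the ERK and p38 pathways act upstream of many of them, and their mRNAs are usually short-lived. The EGR and KLF members encode zinc finger transcription factors, IER2 and IER5 encode nuclear proteins, and IER3 encodes a stress-inducible protein linked to cell survival.

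Cells had been given 10 µM EerI, 10 µM CBU-028 or 10 µM 5-NA for 10 h, or were controls, with 2 arrays in each of the 4 groups. EerI (Eeyarestatin I) inhibits degradation of misfolded proteins of the endoplasmic reticulum and binds the p97 ATPase. 5-NA (5-nitrofuryl-acrolein) is its nitrofuran-containing part without the aromatic module. CBU-028, known here by its code name, has per the paper the same nitrofuran-containing part joined to another group with a benzene ring. In the study's compound table, the number that heads the titles of the 5-NA arrays belongs to CBU-029, whereas all other labels of these arrays and the paper name 5-NA. A solvent for the control cells is not stated, and the methods speak of duplicates without saying more about how they were made, so the p-values measure only the spread between these samples.

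RNA was measured as log2 values of Affymetrix probe sets. For ACTB, the 3′ end read 0.363 above the 5′ end on the array of 5-NA replicate 2 and 0.0743 to 0.196 above it on the other 7 arrays. For GAPDH, the 3′ end minus the 5′ end was 0.0129 on the array of 5-NA replicate 2 and -0.112 to -0.0668 on the other 7. The 5′ probe set for the large ribosomal RNA read 12.6 to 12.7 on the control arrays and 14.0 on both 5-NA arrays. Of the markers of the line, NEFL, NEFM, VIM, KRT8 and KRT18 read between 9.31 and 13.8 on all arrays, whereas PAX2 (6.58 to 6.95) lay about the array medians of 6.89 to 6.93. Of 5 B cell markers, chosen since the study also used a lymphoma line, PTPRC read 4.40 to 4.86, MS4A1 5.01 to 5.71, PAX5 6.76 to 7.06, CD79B 6.84 to 7.12 and CD79A 7.43 to 7.87, so that CD79A lay above the array medians, and none passed the test after any compound. The residual SD of the member genes was 0.262 in the 5-NA group and 0.0919 to 0.0974 in the other groups. On the brightest probe sets the 5-NA duplicates lay 0.892 apart for EGR1 and 0.570 for EGR3, and 0.066 to 0.237 for the other measured genes.

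Start regions are printed for 3 genes that rose after 5-NA (EGR1, IER2 and KLF4) and for KLF6, which did not, so that the sites named for the upstream factors can be seen. RefSeq windows of 250 bases before to 50 bases after the gene start (GRCh38.p14) were on hand for 7 of the 10 genes. They lie at chr5:138465229-138465528 on the plus strand for EGR1, chr19:13150161-13150460 on the plus strand for IER2, chr9:107489720-107490019 on the minus strand for KLF4 and chr10:3785160-3785459 on the minus strand for KLF6. Each is written 5′ to 3′ along its gene, and capitals mark CArG boxes, the site of serum response factor, and TGACG half-sites of CREB-family factors on either strand (CGTCA where they lie on the other strand).
EGR1: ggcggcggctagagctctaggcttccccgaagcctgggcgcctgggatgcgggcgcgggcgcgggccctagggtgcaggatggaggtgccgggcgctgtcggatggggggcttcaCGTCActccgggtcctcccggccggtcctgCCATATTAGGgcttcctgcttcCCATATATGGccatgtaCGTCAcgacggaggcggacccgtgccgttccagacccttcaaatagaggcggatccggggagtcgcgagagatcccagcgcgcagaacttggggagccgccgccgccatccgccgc
IER2: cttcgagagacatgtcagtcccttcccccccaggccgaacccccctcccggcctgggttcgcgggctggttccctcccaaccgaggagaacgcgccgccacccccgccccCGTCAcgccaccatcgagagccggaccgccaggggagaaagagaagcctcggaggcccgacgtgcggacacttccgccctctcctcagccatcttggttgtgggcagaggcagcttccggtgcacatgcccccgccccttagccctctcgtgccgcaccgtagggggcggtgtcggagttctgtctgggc
KLF4: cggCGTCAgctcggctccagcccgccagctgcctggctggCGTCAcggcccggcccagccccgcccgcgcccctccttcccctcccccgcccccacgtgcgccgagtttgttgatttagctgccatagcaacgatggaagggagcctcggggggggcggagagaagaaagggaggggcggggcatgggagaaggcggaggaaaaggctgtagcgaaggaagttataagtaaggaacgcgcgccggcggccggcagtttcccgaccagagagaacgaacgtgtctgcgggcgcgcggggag
KLF6: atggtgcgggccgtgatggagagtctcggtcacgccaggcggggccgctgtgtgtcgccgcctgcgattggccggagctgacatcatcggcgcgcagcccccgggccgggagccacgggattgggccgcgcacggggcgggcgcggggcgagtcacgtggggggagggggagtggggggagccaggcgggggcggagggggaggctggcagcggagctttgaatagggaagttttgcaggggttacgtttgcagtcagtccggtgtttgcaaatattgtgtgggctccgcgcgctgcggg

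EGR1 held 2 CArG boxes, whose first bases lie at -105 and -83 from the gene start, and 2 TGACG half-sites at -135 and -66. IER2 held 1 half-site at -140 and KLF4 held 2 at -247 and -210, both without a CArG box, and KLF6 held neither motif. KLF2 and IER5, which also rose after 5-NA, held neither motif either. Of all 35116 windows of this length, 1.29% held a CArG box and 24.6% a TGACG half-site. The GC box GGGCGG, which KLF and Sp factors can bind, occurred 4 times in IER2, 4 times in KLF4, 2 times in KLF6 and 6 times in KLF2, and was in 45.0% of all windows. The EGR site GCGNGGGCG, which shares letters with the GC box, was, among the measured genes, in the windows of EGR1, KLF4, KLF6 and KLF2, and in 9.43% of all windows. EGR2, which was not measured, had windows at several starts, of which 1 held a CArG box. The IER5 window held none of the motifs searched, and the full palindrome TGACGTCA, which contains the half-site and was in 1.85% of all windows, was in no member window. These matches are letters in 1 window per gene start and not measured binding.

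The comparisons with control asked which of these genes each compound moved. After 5-NA, 6 of the 9 measured genes rose and none fell on its brightest probe set (adjusted p of limma's moderated test below 0.05). The 6 were IER3, KLF4, IER2, IER5, KLF2 (on the brighter of its 2 probe sets) and EGR1 (on 2 of its 3). KLF6 fell on a dimmer probe set, 224606_at (-0.34, limma adjusted p = 0.0180). Over all 19775 genes, 7.87% rose and 10.9% fell by the same rule. EGR1, IER3 and KLF4 also passed 2-fold, as 0.531% of all genes did in that direction. The EGR1 probe set counted here was chosen with the 5-NA arrays included. With its brightest probe set in control cells EGR1 did not pass limma's test (0.11, adjusted p = 0.719) and leaves both counts. EGR1 and IER5 also did not pass with the methods' ANOVA after adjustment (adjusted p = 0.0939 and 0.112). The median difference of the members was 0.61 on the log2 scale, against -0.03 for all genes. It counts EGR1 on the probe set chosen with the 5-NA arrays. With its brightest probe set in control cells the median is the value of EGR3, 0.50. After CBU-028, KLF4 and IER2 rose and IER5 fell, where 5.49% of all genes rose and 7.10% fell, and the median of the members was 0.18. After EerI no member passed the test, where 0.769% of all genes did in either direction, and the median was -0.01. By unadjusted p under 0.05 there were 4 members after EerI (IER3, IER5 and KLF10 lower, KLF4 higher), where 11.8% of all genes had such a p, and the methods' ANOVA also gave 4, where it gave 13.1% of all genes. All 3 comparisons used the same 2 control arrays. Treated cells were taken at 10 h only, so a change that had passed by then would not be seen.

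**Figure D1:**
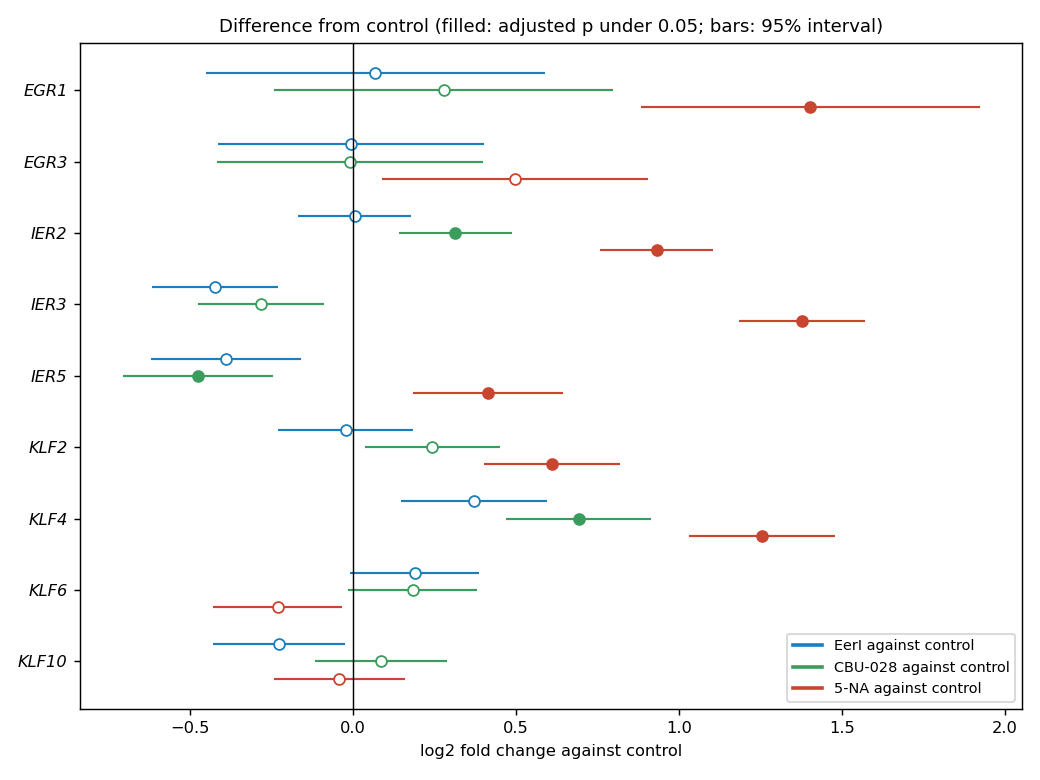
Log2 fold change of each of the 9 measured genes after EerI (blue), CBU-028 (green) and 5-NA (red) against control, with 95% intervals; filled points have an adjusted p under 0.05. EGR1, IER3 and KLF4 lie beyond 1 after 5-NA, no EerI point is filled, and IER5 is below 0 after CBU-028 and above 0 after 5-NA.

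RNA of whole cultures was measured, so that a change in part of the cells, fewer cells of a kind and less RNA per cell cannot be told apart. Along with the rise of the 6 genes, the probe sets for the large ribosomal RNA rose after 5-NA by 1.39 (5′) and 1.22 (middle) on the log2 scale, whereas the 3′ one differed by 0.15 (adjusted p = 0.305). After CBU-028 the 5′ probe set for the large ribosomal RNA rose by 0.36 (limma adjusted p = 0.0377), and the middle one differed by 0.36 (0.0788). The 3′ probe set for the small ribosomal RNA rose by 1.05 after 5-NA and by 0.98 after CBU-028, and the middle one by 0.69 and 0.66. Their part in the results was not tested. Of the 6 markers of the line, 1 rose (KRT8, by 0.29) and 1 fell (NEFL, by 0.41) after 5-NA, and 2 fell (NEFL by 0.38 and NEFM by 0.43) after CBU-028.

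Among the EGR genes, EGR1 encodes a transcription factor commonly read as a sign of early gene activation. On its probe set with the highest mean, 201694_s_at, EGR1 read 6.76 and 6.54 in control cells, 6.67 and 6.77 after EerI, 6.98 and 6.88 after CBU-028, and 8.50 and 7.61 after 5-NA. Both 5-NA arrays lay above all others, and they were themselves 0.89 apart, the widest gap between duplicates among the members. The SD was 0.631 in the 5-NA group and 0.0660 to 0.155 in the other groups, whereas limma's test assumes 1 spread for all groups. The 5-NA rise was 1.40 on the log2 scale (SE 0.230, adjusted p = 0.00424), or 2.64-fold. Without 5-NA replicate 1 it was 0.96, and without 5-NA replicate 2, the array with the wide ACTB difference, 1.85, and it passed the test with each of the 4 arrays left out. The call was lost with the methods' ANOVA after adjustment (adjusted p = 0.0939). With CBU-028 the difference from control was 0.28 (95% interval -0.24 to 0.80), with both arrays above the control arrays, and with EerI 0.07 (-0.45 to 0.59), with overlapping arrays.

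The other EGR1 probe sets did not all show this. Probe set 227404_s_at, dim with 4.91 on both control arrays, read 5.38 and 5.61 after 5-NA (0.59, SE 0.130, adjusted p = 0.0160), and its higher array was that of replicate 2. Probe set 201693_s_at read 6.70 and 6.68 in control cells and 6.90 and 6.71 after 5-NA, a difference of 0.11 (95% interval -0.24 to 0.46). These probe sets of the same gene therefore gave unequal changes. The choice of 201694_s_at rests on the 5-NA arrays, since 201693_s_at was the brighter one in control cells (mean of 6.69 against 6.65), and with the brightest probe set in control cells EGR1 did not pass the test (0.11, adjusted p = 0.719), whereas no other member changed its probe set. The mean of 201694_s_at was 7.09 over all arrays and 6.77 without those of 5-NA, so that it passes the floor of 7 only through them. With the mean of its 3 probe sets the rise of EGR1 was 0.70 and passed the test.

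EGR3, a close relative of EGR1, had 1 dim probe set. It read 5.51 and 5.80 in control cells, 5.79 and 5.51 after EerI, 5.70 and 5.60 after CBU-028, and 6.44 and 5.87 after 5-NA. Both 5-NA arrays were above the others, as for EGR1 with replicate 1 the higher. The difference of 0.50 did not pass the test (SE 0.181, limma adjusted p = 0.105), and it did so at 0.78 when 5-NA replicate 2 was left out (adjusted p = 0.0285). EGR3 differed from control by -0.01 after EerI and after CBU-028, with intervals of -0.41 to 0.40 and -0.42 to 0.40.

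**Figure D2:**
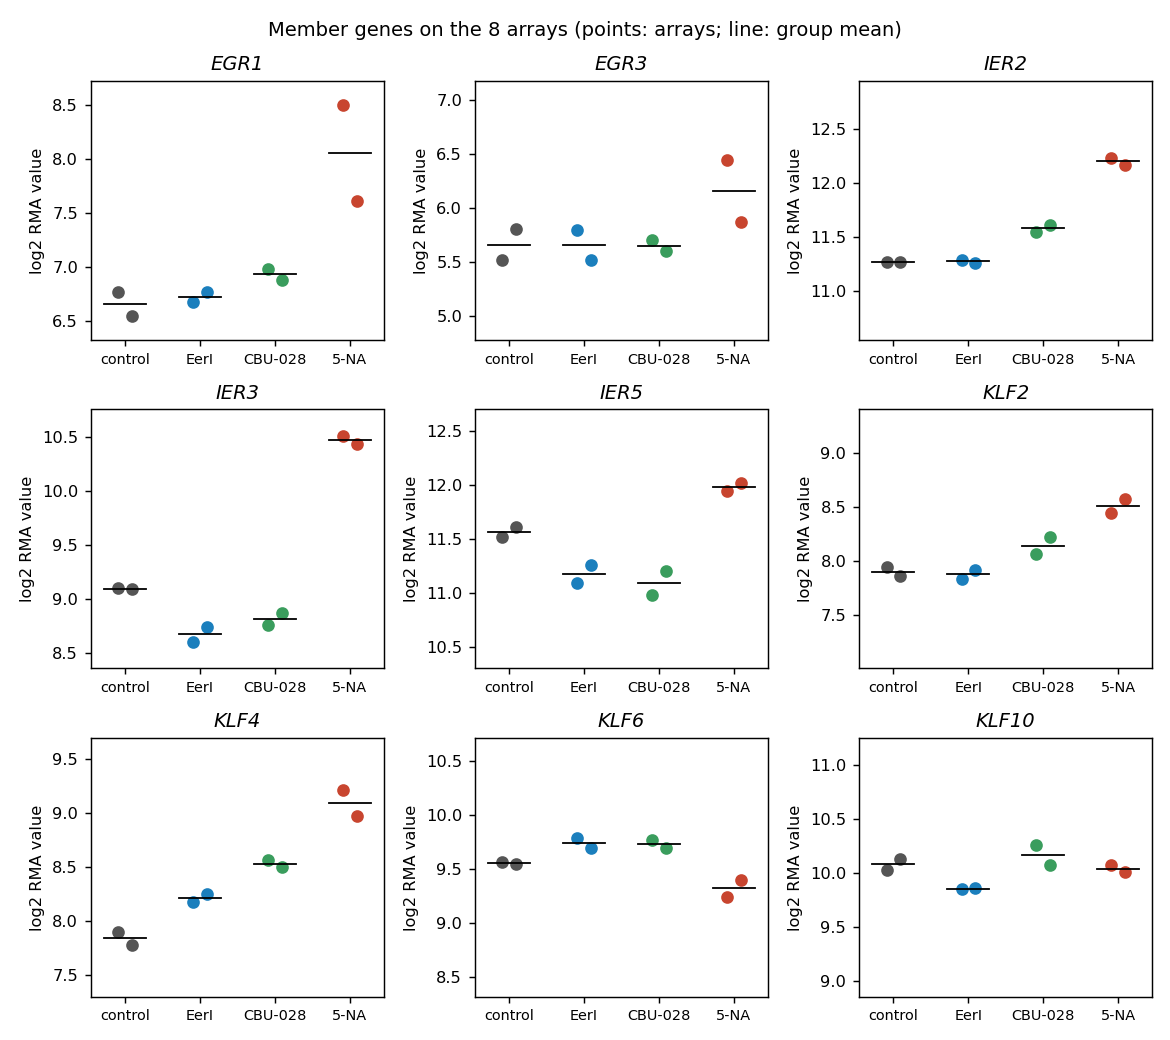
Log2 RMA value of each measured gene on every array (points) with the group mean (line), in 1 panel per gene with equal spans of the vertical axis. The 5-NA arrays stand above all other arrays for EGR1, EGR3, IER2, IER3, IER5, KLF2 and KLF4, and below them for KLF6. Of these, EGR3 and KLF6 did not pass the test against control, and the share of all genes separated in this way was not counted.

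Among the IER genes, IER3 changed most. IER3 read 9.10 and 9.09 in control cells, 8.60 and 8.74 after EerI, 8.76 and 8.87 after CBU-028, and 10.51 and 10.44 after 5-NA. The control arrays lay between the 5-NA arrays above and all arrays of the other compounds below. The 5-NA rise was 1.38 (SE 0.0855, adjusted p = 7.36e-05), or 2.60-fold, and remained between 1.34 and 1.41 with any of the 4 arrays left out. The differences after EerI (-0.42, adjusted p = 0.0890) and CBU-028 (-0.28, adjusted p = 0.0759) did not pass the test. IER3 passed it in both with probe sets below a mean of 7 left out (adjusted p = 0.0304 and 0.0293), with the mean of all probe sets per gene (0.0313 and 0.0341) and with a trend in the prior variance (0.0274 and 0.0411).

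IER2, an early gene whose protein enters the nucleus, read 11.27 on both control arrays, 11.29 and 11.26 after EerI, 11.55 and 11.62 after CBU-028, and 12.23 and 12.17 after 5-NA. The EerI arrays overlapped those of control, both CBU-028 arrays lay above them and both 5-NA arrays above all others. The rise was 0.93 after 5-NA (SE 0.0769, adjusted p = 0.000237), or 1.91-fold, and 0.31 after CBU-028 (adjusted p = 0.0352), whereas EerI differed by 0.00 (95% interval -0.17 to 0.18). The CBU-028 call was lost without control replicate 1 (adjusted p = 0.204), control replicate 2 (0.182) or CBU-028 replicate 2 (0.0665), at values of 0.28 to 0.35 with any of the 4 arrays left out. It was also lost with the replicate number as a block (adjusted p = 0.0533) and with a fit of both groups alone (0.109).

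IER5, which takes part in the response to heat and other stress, moved in opposite directions. It read 11.52 and 11.61 in control cells, 11.09 and 11.26 after EerI, 10.98 and 11.20 after CBU-028, and 11.94 and 12.02 after 5-NA. All 5-NA arrays were above and all EerI and CBU-028 arrays below the control arrays. The fall of 0.48 after CBU-028 (limma adjusted p = 0.0204) and the rise of 0.41 after 5-NA (adjusted p = 0.0253) passed the test, and the difference of -0.39 after EerI did not (adjusted p = 0.188). The 5-NA call was lost whichever of the 4 arrays was left out (adjusted p = 0.0773 to 0.169, values 0.37 to 0.46) and with the adjusted ANOVA (0.112). The CBU-028 call was lost without control replicate 1 (0.0946), control replicate 2 (0.147) or CBU-028 replicate 1 (0.0706), with the adjusted ANOVA (0.112) and with a fit of both groups alone (0.0751). With a trend in the prior variance the EerI difference of IER5 passed the test (adjusted p = 0.0442).

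Among the KLF genes, KLF4, known for its part in epithelial differentiation and in reprogramming, changed most. It read 7.90 and 7.78 in control cells, 8.18 and 8.25 after EerI, 8.57 and 8.50 after CBU-028, and 9.21 and 8.98 after 5-NA. The 4 groups did not overlap and rose in that order. Against control the differences were 1.25 after 5-NA (SE 0.0991, adjusted p = 0.000205), 0.69 after CBU-028 (adjusted p = 0.00340) and 0.37 after EerI, which did not pass (adjusted p = 0.199). The CBU-028 rise passed the test with each of its 4 arrays left out (0.63 to 0.75) and was lost with the adjusted ANOVA (adjusted p = 0.0521). The second KLF4 probe set, 220266_s_at, rose by 0.65 after 5-NA and by 0.32 after CBU-028 (adjusted p = 0.00118 and 0.0374), and on it EerI (6.84 and 6.89) and CBU-028 (6.84 and 6.83) did not stand apart.

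KLF2, a factor best known from vessel lining and lymphocytes, read 7.94 and 7.86 in control cells, 7.84 and 7.92 after EerI, 8.07 and 8.22 after CBU-028, and 8.45 and 8.58 after 5-NA. Only the 5-NA rise passed the test against control (0.61, SE 0.0917, adjusted p = 0.00289), whereas CBU-028 differed by 0.24 (adjusted p = 0.149) with both arrays above the control arrays. A second, dim probe set of KLF2, 226646_at, read 5.43 to 5.86 over all arrays and differed by -0.07 after 5-NA (95% interval -0.40 to 0.26). With the mean of both probe sets in place of the brighter one the 5-NA difference was 0.27 and did not pass (adjusted p = 0.0960).

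KLF6 went the other way. Its brightest probe set, 1555832_s_at, read 9.56 and 9.55 in control cells, 9.79 and 9.70 after EerI, 9.78 and 9.70 after CBU-028, and 9.25 and 9.40 after 5-NA. The 5-NA arrays were below and the other treated arrays above the control arrays, and none of these differences passed the test (-0.23, 0.19 and 0.18 for 5-NA, EerI and CBU-028, limma adjusted p = 0.118, 0.537 and 0.255). On all 5 KLF6 probe sets the 5-NA difference was negative (-0.16 to -0.34), and on 224606_at it passed the test (-0.34, adjusted p = 0.0180). The 5-NA difference of KLF6 also passed with the mean of its probe sets (-0.23, adjusted p = 0.0232) and with probe sets below a mean of 7 left out (0.0495).

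KLF10, a gene induced by TGF-beta, read 10.03 and 10.13 in control cells, 9.85 and 9.86 after EerI, 10.25 and 10.07 after CBU-028, and 10.07 and 10.00 after 5-NA. Its 5-NA arrays overlapped those of control, with a difference of -0.04 (95% interval -0.24 to 0.16). The EerI arrays were the lowest, and their difference of -0.23 did not pass the test (adjusted p = 0.440).

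Over all 17 probe sets of the members, 8 rose and 1 fell after 5-NA, where 7.32% of all 54675 probe sets rose and 7.90% fell. After CBU-028, 3 rose and 1 fell, where 4.40% rose and 5.27% fell, and after EerI none passed, where 0.527% did in either direction.

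**Figure D3:**
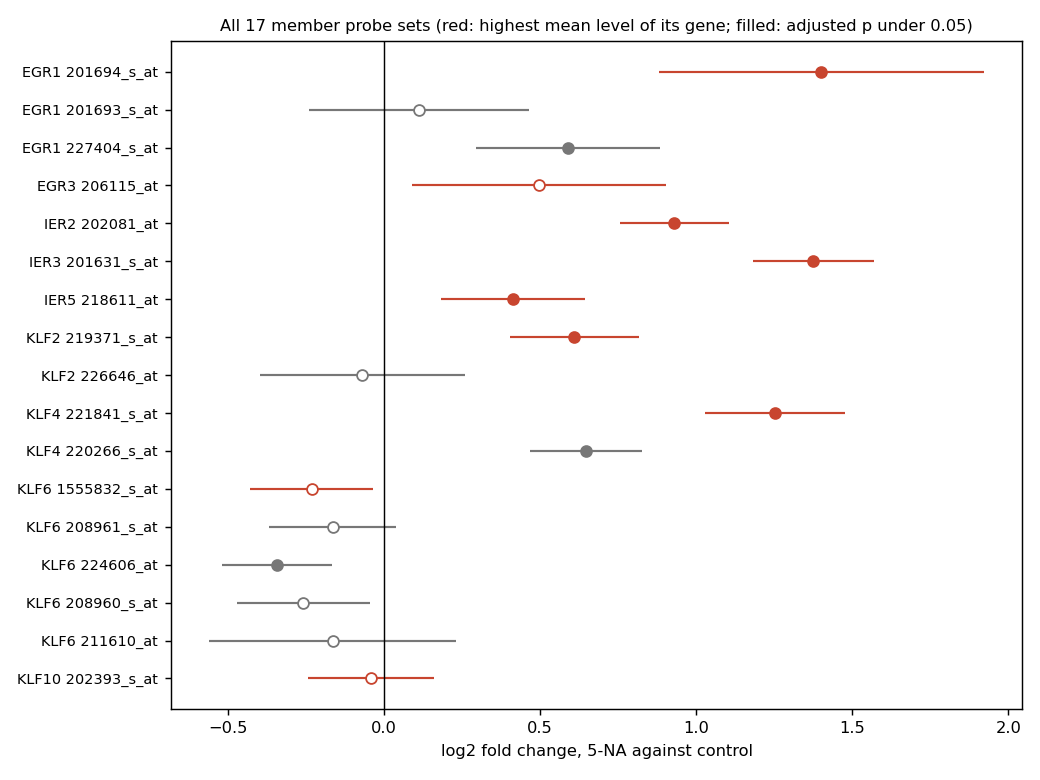
Log2 fold change of 5-NA against control on each of the 17 probe sets, with 95% intervals; red marks the probe set with the highest mean of its gene and filled points have an adjusted p under 0.05. EGR1 spans 0.11 to 1.40 and KLF2 -0.07 to 0.61 between their probe sets, and all 5 KLF6 probe sets lie below 0.

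The compounds were next compared with each other at the same dose and time, in 3 pairs, with p-values adjusted over all probe sets of a pair. In the paper's lymphoma line, 5-NA was toxic at a lower concentration than EerI, and CBU-028 was similar to EerI. The doses were thus not matched for toxicity, and the part of this in the differences was not tested. Between 5-NA and EerI, of which 5-NA is a part, 6 members were higher with 5-NA (7.93% of all genes) and 1 was lower (9.66% of all genes). The same 7 genes differed between 5-NA and CBU-028, where 6.47% of all genes were higher and 7.33% lower. IER3 and EGR1 also passed 2-fold in both pairs, as 0.475% and 0.298% of all genes did in that direction. With its brightest probe set in control cells EGR1 passed in neither pair (0.09 and 0.16). These 2 pairs share the 5-NA arrays. Between CBU-028 and EerI no member passed limma's test, where 3.73% of all genes did, and 4 had an unadjusted p under 0.05, as 19.2% of all genes had (by the methods' ANOVA also 4, and 19.6% of all genes).

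The largest differences were those of IER3, 1.80 between 5-NA and EerI (SE 0.0855, adjusted p = 5.62e-05), or 3.48-fold, and 1.66 between 5-NA and CBU-028 (adjusted p = 0.000116), or 3.16-fold. EGR1 differed by 1.33 (SE 0.230, adjusted p = 0.00577) and 1.12 (adjusted p = 0.0159), and the former call was lost without EerI replicate 1 (adjusted p = 0.0521). Both EGR1 calls were lost with the adjusted ANOVA (0.107 and 0.165) and with the brightest probe set in control cells (differences of 0.09 and 0.16), and that against CBU-028 also with a fit of both groups alone (0.0555). Without 5-NA replicate 1 the difference from CBU-028 was 0.68. IER5 differed by 0.80 and 0.89 (adjusted p = 0.00154 and 0.00164), with the control arrays in between.

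IER2 was higher with 5-NA than with EerI by 0.93 and than with CBU-028 by 0.62 (adjusted p = 0.000329 and 0.00214). KLF4 was higher by 0.88 and 0.56 (adjusted p = 0.000965 and 0.00874), and the latter call was lost without 5-NA replicate 1 (adjusted p = 0.0552) and with the adjusted ANOVA (0.0703). KLF2 was higher by 0.63 and 0.37 (adjusted p = 0.00276 and 0.0351), and the latter call was lost without CBU-028 replicate 1 (0.103), 5-NA replicate 1 (0.0702) or 5-NA replicate 2 (0.178), with the adjusted ANOVA (0.105) and with a fit of both groups alone (0.139). With the mean of both KLF2 probe sets the differences were 0.31 and 0.21, and neither passed (adjusted p = 0.0605 and 0.214).

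KLF6 was the member lower with 5-NA, by -0.42 against EerI and -0.41 against CBU-028 (adjusted p = 0.0132 and 0.0182). The call against EerI was lost without EerI replicate 1 (0.117), EerI replicate 2 (0.0565) or 5-NA replicate 1 (0.0772), and that against CBU-028 without CBU-028 replicate 1 (0.0511) or 5-NA replicate 1 (0.0979). Both KLF6 calls were lost with the adjusted ANOVA (0.0537 and 0.0660), and that against CBU-028 with a fit of both groups alone (0.0952). On the other KLF6 probe sets, 224606_at was lower against EerI, and 208961_s_at, 224606_at and 208960_s_at were lower against CBU-028 (-0.37 to -0.57). EGR3 did not pass in either pair (0.50 and 0.51, adjusted p = 0.105 and 0.119), nor did KLF10 (0.18 and -0.13). EGR3 passed in both without 5-NA replicate 2 (adjusted p = 0.0314 and 0.0404).

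CBU-028 and EerI were not told apart on any member, and the intervals leave room for differences of some size. For EGR1 the interval was -0.31 to 0.73 around 0.21, and for IER3 it was -0.05 to 0.33 around 0.14. It lay above 0 for KLF4 (0.10 to 0.54), IER2 (0.14 to 0.48), KLF10 (0.11 to 0.51) and KLF2 (0.06 to 0.47), with adjusted p = 0.130, 0.0711, 0.107 and 0.170. IER2 and KLF10 passed the test with a trend in the prior variance (adjusted p = 0.00904 and 0.0425) and with probe sets below a mean of 7 left out (0.0231 and 0.0461).

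**Figure D4:**
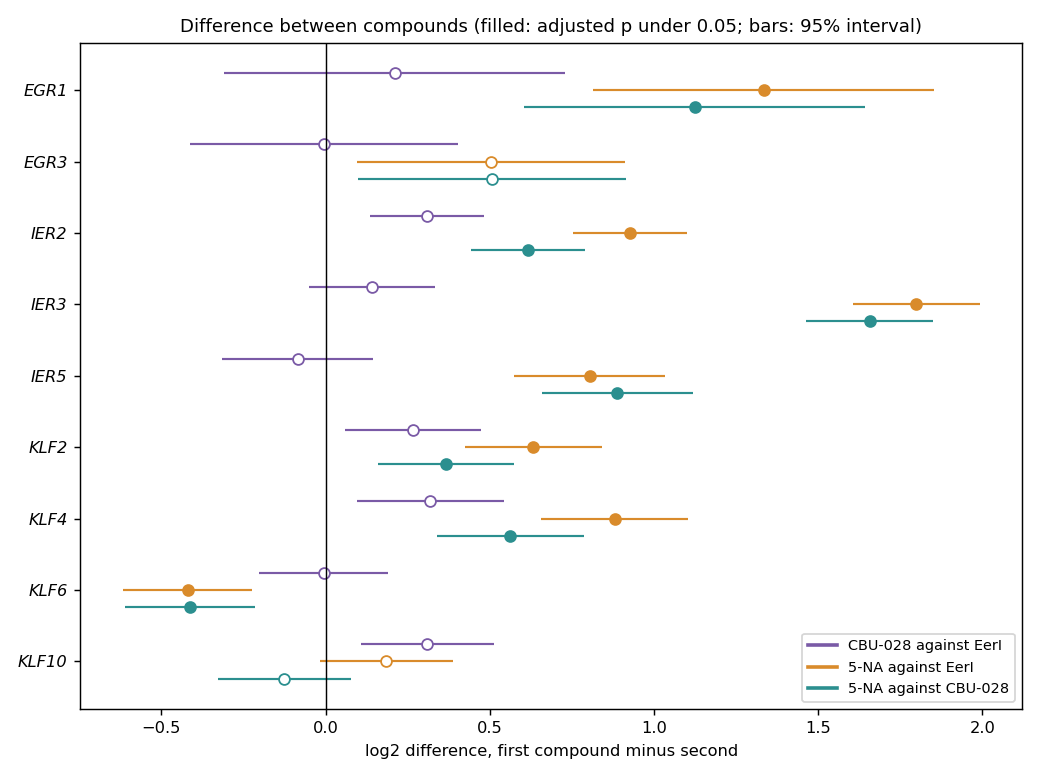
Log2 difference of each measured gene between CBU-028 and EerI (purple), 5-NA and EerI (orange) and 5-NA and CBU-028 (teal), first compound minus second, with 95% intervals; filled points have an adjusted p under 0.05. The 2 pairs with 5-NA are filled for 7 of the 9 genes, with KLF6 below 0, and no point of CBU-028 against EerI is filled.

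Of 15 further EGR, IER and KLF genes (EGR4, IER5L and 13 KLF genes), 1 rose and 3 fell after 5-NA with a median of -0.08, 2 rose and 2 fell after CBU-028 with a median of 0.03, and none passed after EerI with a median of -0.02. Of all genes 7.87% rose and 10.9% fell after 5-NA, 5.49% and 7.10% after CBU-028, and 0.769% passed in either direction after EerI. The gene that rose after 5-NA was KLF5, a factor of proliferating epithelium. It read 8.07 and 7.84 in control cells, 7.95 and 8.02 after EerI, 8.80 and 8.28 after CBU-028, and 9.06 and 9.18 after 5-NA, so that all 5-NA arrays were above the others. KLF5 rose by 1.17 after 5-NA (SE 0.156, adjusted p = 0.00173) and by 0.59 after CBU-028 (adjusted p = 0.0466). Its second probe set rose by 0.73 after 5-NA and differed by -0.04 after CBU-028.

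KLF15 fell by 0.55 after 5-NA (limma adjusted p = 0.00264), and its other probe set differed by -0.24 (adjusted p = 0.0751). KLF11 rose by 0.45 after CBU-028 (adjusted p = 0.0270), with 0.04 on its dim second probe set. KLF13 fell by 0.43 after CBU-028 (adjusted p = 0.0119), and of its other 3 probe sets, all dimmer, 219878_s_at differed by 0.35 the other way (adjusted p = 0.0741). The remaining calls of this list were falls of KLF9 (0.38) and KLF12 (0.35) after 5-NA and of KLF16 (0.40) after CBU-028, named here after their values were seen.

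Of 25 regulators and cofactors of immediate early genes 22 are described here. After 5-NA 2 rose and 4 fell, after CBU-028 2 rose and 2 fell, and after EerI 1 fell, with medians of -0.05, -0.16 and -0.06, beside the same shares of all genes. ELK3, a partner of serum response factor that can repress, was the one that fell after all compounds. It read 9.37 and 9.28 in control cells, 8.82 and 8.90 after EerI, 8.28 and 8.36 after CBU-028, and 8.65 and 8.68 after 5-NA. The falls were 1.01 after CBU-028 (SE 0.0809, adjusted p = 0.000277), 0.66 after 5-NA (adjusted p = 0.00116) and 0.47 after EerI (adjusted p = 0.0481). A second, dim ELK3 probe set differed by -0.14 to 0.01.

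MRTFB, a coactivator of serum response factor, fell by 0.54 after 5-NA (limma adjusted p = 0.00644), and none of its other 4 probe sets, all dim, passed the test. Of them 1558778_s_at and 1562497_at differed the other way by 0.28 and 0.43 (limma adjusted p = 0.0758 and 0.147). The remaining ones differed by 0.03 and -0.01. RPS6KA5, a kinase that acts on histone H3 and CREB, rose after 5-NA on both brighter probe sets (0.53 and 0.47, adjusted p = 0.00537 and 0.0405). MAP2K5, the kinase upstream of ERK5 (MAPK7), which acts on MEF2 factors and on KLF2, fell on both brightest probe sets (-0.47 and -0.44, adjusted p = 0.00429 and 0.00504). Its next brightest probe set, 204756_at, differed by -0.19 after 5-NA and did not pass limma's test (adjusted p = 0.211). The remaining calls, named after their values were seen, were rises of CREM after 5-NA (0.41) and CBU-028 (0.38) and of MEF2A after CBU-028 (0.31), and falls of MEF2C after 5-NA (0.37) and of SRF after CBU-028 (0.36, limma adjusted p = 0.0309). SRF, serum response factor itself, differed by -0.12 after 5-NA (adjusted p = 0.421).

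**Figure D5:**
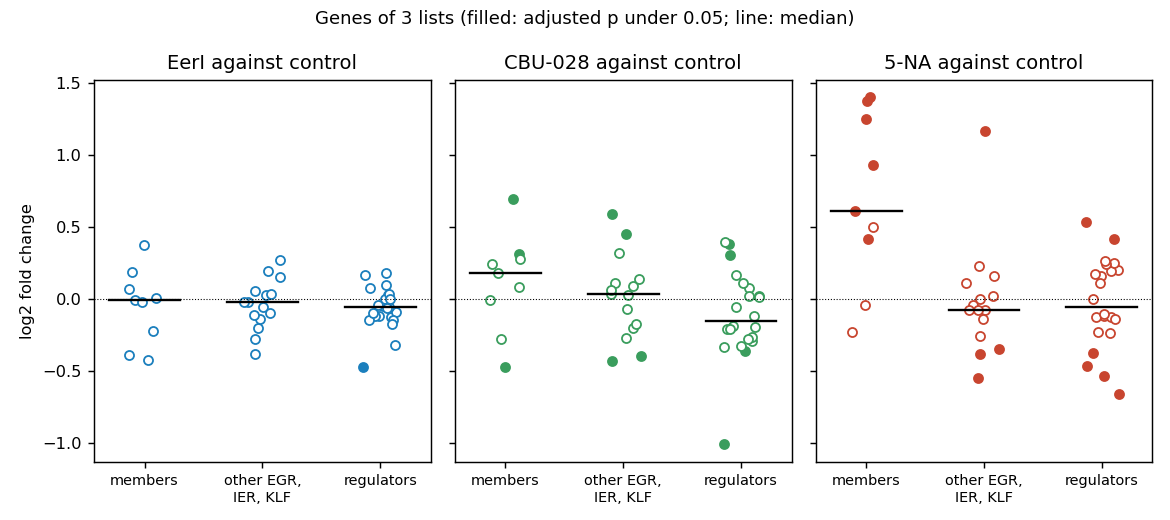
Log2 fold change against control of the 9 members, 15 other EGR, IER and KLF genes and 22 regulators, 1 panel per compound, with the median of each list as a line; filled points have an adjusted p under 0.05. After 5-NA the median of the members is 0.61 and those of the other lists are -0.08 and -0.05. The median of the members counts EGR1 on a probe set chosen with the 5-NA arrays included.

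The genes whose levels followed a member most closely over the 8 arrays are given as a description, from 12386 genes with a mean of at least 7. For EGR1 these were CWF19L2 (Pearson r = 0.993), RGS2 (0.981) and KCNK5 (0.980), and of them RGS2 differed from control after 5-NA by 1.39, KCNK5 by 0.55 and CWF19L2 by 0.11. For IER3 they were SPRING1, TENT5A and SAFB2 (0.997, 0.997 and 0.995), with 5-NA differences of 0.38, 0.95 and 0.48. For KLF4 they were PELO, LRP12 and ANKRD12 (0.993 each), with 5-NA differences of 0.69, 0.72 and 0.77. The 8 arrays fall into 4 groups, so such values rest largely on the differences between groups.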

How the data were processed

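RNA of 293T cells was measured on 8 Affymetrix arrays. The authors made the deposited log2 values with the RMA algorithm, which corrects for background, gives all arrays the same distribution and combines the probes within each probe set. Per the labels Partek was also used, and neither has a version. The probe set names are from HG-U133 Plus 2.0, and the methods name a smaller array of that family. For the RNA, TRIzol with RNeasy MinElute stands in the methods and an RNeasy kit in the labels. Depth has no counterpart here, and the number of arrays limits the precision. The values were used as deposited.

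Genes were named from the platform annotation with updated symbols (41097 probe sets with 1 symbol, 1801 with several, 11777 with none) and each gene is given by its brightest probe set on average. Group means were fitted over all 8 arrays with limma 3.58.1 in R 4.3.3 (4 residual and 5.08 prior degrees of freedom), two-sided, with Benjamini-Hochberg adjustment over all probe sets of each of 6 comparisons. The median SE of a difference was 0.0990. A gene was called at an adjusted p under 0.05. An exact permutation test of 2 against 2 arrays cannot go below p = 0.333 and was not used. The procedure was tested on simulated data.

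Members and lists were chosen with earlier results of these data known. The genes named are all members, up to 4 per further list with the largest difference among those called against control, the 3 closest genes of the leading member of each family, and the ribosomal, ACTB and GAPDH probe sets. Groups came from the labels. Replicate numbers did not pair the samples: the correlation of duplicate differences between groups was -0.146 to 0.146. Other settings tried were the ANOVA of the methods (raw or adjusted p), thresholds on the fold, floors of 5 and 7 on dim probe sets, the mean of a gene's probe sets, no _x_at or no control probe sets, renewed quantile normalization or median centring, the replicate number as a block, fitting 2 groups at a time, a prior variance with a trend, and leaving out each array. The ANOVA with a 2-fold threshold, a crossed block and the brightest probe set in control cells were chosen after seeing the data. Python 3.11.15 with matplotlib 3.10.9 drew the figures. Only the arrays were analysed here.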

Additional observations from a re-analysis of the deposited data

How the results depend on the processing

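Of 122 counts of called members under another setting, 95 were within 1.5 times the reported count. Renewed quantile normalization, median centring and leaving out _x_at or control probe sets moved no count by more. These settings could move little, since RMA had already given the arrays the same distribution and no member probe set was an _x_at or control one. No called difference changed sign, and 23 of 1092 values, all uncalled, did (-0.07 to 0.14).

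For EerI against control (0 called), the methods' ANOVA at unadjusted p gave 4, a floor of 7 gave 1, the mean of probe sets 1 and a trend in the prior variance 2. For CBU-028 against control (3), the methods' ANOVA gave 5 unadjusted and 1 adjusted, a 1.5-fold threshold 1, 2-fold 0, the ANOVA with 2-fold 0 and a fit of the compared groups alone 1. For 5-NA against control (6), 2-fold gave 3, as did the ANOVA with 2-fold. For CBU-028 against EerI (0), the ANOVA at unadjusted p gave 4, a floor of 7 gave 2, the mean of probe sets 1 and a trend 2. For 5-NA against EerI (7), 2-fold gave 2, and so did the ANOVA with 2-fold. For 5-NA against CBU-028 (7), the adjusted ANOVA gave 3, 1.5-fold 4, 2-fold 2, the ANOVA with 2-fold 2 and a fit of both groups alone 4. The thresholds on fold only remove calls by construction, and otherwise the cause was not tested.

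Leaving out 1 array at a time gave 0 calls for EerI, 1 to 2 for CBU-028 (1, KLF4, without either control array) and 5 to 6 for 5-NA against control, 0 to 1 for CBU-028 against EerI, 5 to 8 for 5-NA against EerI and 4 to 7 for 5-NA against CBU-028 (4 without 5-NA replicate 1). Where this leaves 1 array in a group, that array is assumed to vary like the other groups. With the replicate number as a block the counts were 0, 2 and 6 against control for EerI, CBU-028 and 5-NA, 0 for CBU-028 against EerI and 7 for both other pairs, and IER2 after CBU-028 was the call lost. The difference between the EerI duplicates correlated over probe sets at -0.125 with that of control and -0.146 with that of CBU-028, and a block with the EerI numbers crossed gave 0 calls in both.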
